A study of Homo sapiens with 6 samples.

Results

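The genes described here encode TFIID, the general transcription factors TFIIA, TFIIB, TFIIE and TFIIF, the elongation factor TFIIS and BTAF1. The set is a list of 31 gene symbols chosen by function, with earlier results of these data known. Of these, 30 were matched by symbol among the 27420 genes of the FPKM table. TAF1L was not analysed here. The RNA came from A673 and SKNMC, 2 established Ewing sarcoma cell lines that carry the EWS-FLI1 fusion. THZ1, a covalent inhibitor of the kinase CDK7, was given to each line at 50 or 200 nM for 6 h, DMSO served as the vehicle control, and 1 library was made per line and dose. The study used this design to compare a low with a high dose of the inhibitor. Without replicates, no difference could be set against the error between cultures, so every value is a description of 6 libraries and no p-value is given.

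RNA polymerase II cannot find a promoter by itself. TFIID, made of the TATA-binding protein TBP and its associated factors (TAFs), recognizes the core promoter, TFIIA and TFIIB fix TBP on DNA and bring in the polymerase with TFIIF, and TFIIE then recruits and stimulates TFIIH. TFIIH carries CDK7, the target of THZ1, so these factors act beside the inhibited kinase in the same initiation complex. Several TAFs have paralogues that replace them in some tissues or in the SAGA coactivator.

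FPKM scales fragments by transcript length and by the mapped fragments of the library, so levels can be compared between genes, but it is a share of the library. A change in the total RNA per cell or in the number of cells does not show in these values. Changes are given as log2((FPKM + 1) with THZ1 / (FPKM + 1) with DMSO), which understates the change of low transcripts. A gene was active in a line when its FPKM with DMSO was above 1, and "decreased" and "increased" mean a change of at least 2-fold of an active gene, with no test. Of the 30 genes, 29 were active in both lines, and TAF7L was the exception. The median active gene was itself below DMSO, with values for 50 and 200 nM of -0.27 and -0.40 (A673) and -0.32 and -0.55 (SKNMC). Dividing each library by the 75th percentile of active genes moved these medians up by 0.22 and 0.32 in A673 and by 0.25 and 0.48 in SKNMC. Dividing by the median of 87 ribosomal protein genes moved them to -0.46, -0.68, -0.60 and -0.99. The Ewing sarcoma markers CD99, NKX2-2, NR0B1, STEAP1, FLI1, CCND1, PRKCB and LIPI, 8 of 8, were above 1 FPKM in all 6 libraries, with summed levels of 1383 to 1624 FPKM in A673 and 719 to 1079 FPKM in SKNMC. Of 7 markers of other cell types, none was above 1 FPKM in A673 and 1 was in SKNMC, the leukocyte gene PTPRC, at 7.90 to 13.1 FPKM, while the T cell gene CD3E was listed at 0 in all 6 libraries. The summed level of the 7 was 0.133 to 0.243 FPKM in A673 and 8.51 to 14.1 FPKM in SKNMC.

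At baseline the 30 transcripts spanned a wide range. With DMSO the median was 18.8 FPKM in A673 and 20.0 FPKM in SKNMC, compared with 14.1 and 13.5 FPKM over all active genes. The most abundant row was TAF9, at 147 FPKM in A673 and 177 FPKM in SKNMC. Its Ensembl identifier, ENSG00000085231, belongs to AK6 in GENCODE release 44, an adenylate kinase gene that shares the TAF9 locus, so this row cannot be read as TAF9 alone. The other 29 identifiers carried the same symbol in that release. GTF2A2, the small subunit of TFIIA, followed at 95.1 and 74.5 FPKM, and TAF10, TAF13, TCEA1, GTF2F2 and TAF7 lay between 39.8 and 74.1 FPKM in either line. The lowest levels in A673 were those of TAF7L at 0.183 FPKM, TAF4B at 2.20 FPKM, TAF3 at 4.46 FPKM and TAF1, the largest subunit of TFIID, at 4.60 FPKM. In SKNMC the lowest were TAF7L at 0.143 FPKM, TAF3 at 2.58 FPKM, TAF4B at 3.81 FPKM, TAF5 at 4.55 FPKM and TAF8 at 8.79 FPKM, followed by TAF1 at 10.0 FPKM. The order of close neighbours has no replicate spread to be judged by. Subunits of 1 complex therefore differed more than 10 times in transcript level per length. The ranks of the genes in the 2 lines were alike (Spearman 0.93 across 30 genes, which share the same transcript lengths in both FPKM columns). At least 2-fold between the lines was TAF12, a histone-fold TAF, at 7.18 FPKM in A673 and 15.9 FPKM in SKNMC. So was GTF2E2, the smaller subunit of TFIIE, at 39.5 and 18.6 FPKM. Their log2 differences, A673 against SKNMC, were -1.05 and 1.05, just past the limit on the deposited scale. In all, 14 of 30 genes were higher in A673, a count that became 23 when libraries were divided by the ribosomal protein median. The share over all genes was not computed for these comparisons between the lines, so neither count can be set against it.

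Upon THZ1 treatment the summed level of the 30 transcripts went from 891 FPKM with DMSO to 784 FPKM at 50 nM and 677 FPKM at 200 nM in A673. In SKNMC it went from 898 to 780 and 613 FPKM. These sums were 0.194%, 0.174% and 0.147% of the listed FPKM in A673 and 0.194%, 0.170% and 0.135% in SKNMC, with the TAF9 row alone contributing between 105 and 177 FPKM. At 50 nM, 3 of 29 active genes decreased in A673 (10.3%), while 15.9% of all active genes did. The same count, 3 of 29, was found in SKNMC, with 15.8% of all active genes decreased. At 200 nM, 10 of 29 decreased in A673 (34.5%, 25.3% of all active genes) and 8 of 29 in SKNMC (27.6%, 27.3% of all active genes). None of the 29 increased at least 2-fold in any comparison, while 0.343% (50 nM) and 0.126% (200 nM) of all active genes in A673 did, and 0.471% and 0.462% in SKNMC. At the 2-fold limit and on the deposited scale, the share of these genes was thus lower than that of all genes at the low dose in both lines, higher at the high dose in A673, and close to it at the high dose in SKNMC. That order depended on the limit and the scale. Their median log2 fold change in A673 was -0.25 with the low and -0.60 with the high dose. The SKNMC medians were -0.32 and -0.71. With a threshold of 1.5-fold, 11 of 29 genes were lowered by the low dose in A673 (31.8% of all active genes) and 9 of 29 in SKNMC (33.5%), which put the set above all genes in A673. With the high dose these counts were 15 of 29 (41.1%) and 18 of 29 (48.0%), above all genes in both lines. With the ribosomal protein median, 8 of 29 decreased in SKNMC with the low dose (25.4% of all active genes) and 19 of 29 with the high dose (49.5%). Dividing libraries by the 75th percentile took TAF6L (A673) and TCEA2 (SKNMC) off the lists of 50 nM, TAF7, TAF11 and GTF2A1 off that of A673 at 200 nM, and GTF2A1 and GTF2B, the latter at -0.99, off that of SKNMC. The plot of cumulative shares shows close medians at 50 nM but not the same spread. On the deposited scale, 24 of 29 genes of the set were below DMSO in A673 at that dose, compared with 7770 of 11077 active genes. In SKNMC 22 of 29 were, compared with 8681 of 11896.

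**Figure D1:**
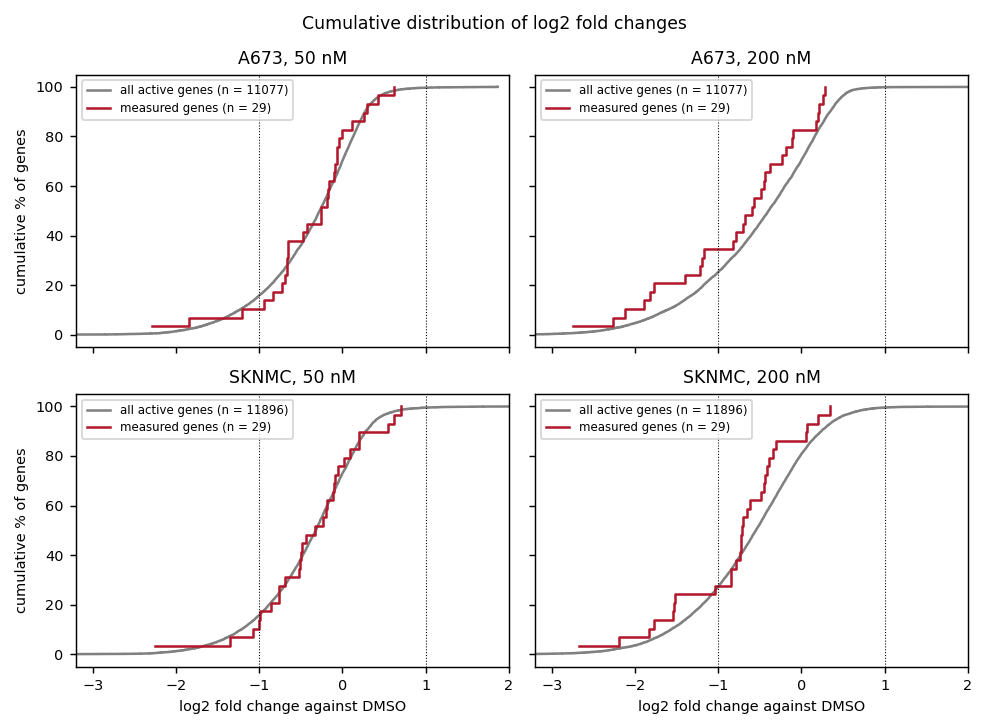
Cumulative distribution of log2 fold changes against DMSO (x axis, log2 scale) as a percentage of genes (y axis), for the 29 active genes of the set in red and for all active genes in grey (11077 in A673, 11896 in SKNMC), with dotted lines at 2-fold. At 50 nM the medians of the set, -0.25 and -0.32, are close to those of all active genes, -0.27 and -0.32, while the curves part elsewhere, and at 200 nM the medians of the set, -0.60 and -0.71, lie to the left of -0.40 and -0.55.

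The steepest loss was that of GTF2E1, the large subunit of TFIIE, which links the polymerase to TFIIH. Its level was 9.10 FPKM with DMSO, 1.06 FPKM at 50 nM and 0.508 FPKM at 200 nM in A673. In SKNMC it was 10.7, 1.45 and 0.825 FPKM. Every THZ1 library was thus below 14% of its DMSO level, at 11.7% and 5.58% in A673 and 13.6% and 7.71% in SKNMC. The log2 fold changes were -2.29, -2.74, -2.25 and -2.68, and between 0.437% and 0.614% of active genes had a lower value in a comparison. GTF2E1 was the only gene of the set that decreased in all 4 comparisons (1 of 29, 3.45%), as did 8.7% of the genes active in both lines. With a pseudocount of 0.1, TAF5 and TAF6L joined it, since their values in SKNMC at 50 nM were then -1.31 and -1.07. GTF2E2, its partner in TFIIE, kept between 56.8% and 62.6% of its DMSO level and decreased in none. GTF2E1 overlaps RABL3 on the other strand, which was at 9.12, 5.20 and 6.35 FPKM in A673 and 14.6, 7.88 and 9.92 FPKM in SKNMC, and use of the strand in counting is not given in the sources used here.

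TAF5, a WD40-repeat protein in the structural core of TFIID, had the next lowest log2 fold changes in A673. In SKNMC, TAF12 and TCEA2 were lower on that scale at 50 nM and TBPL1 and TBP at 200 nM. That order depended on the added 1. As a share of DMSO in SKNMC, TAF5 was at 13.7% at 200 nM, under TBPL1 at 19.7% and TBP at 23.3%. At 50 nM it was at 39.0%, under TCEA2 at 45.1% but over TAF12 at 35.4%. TAF5 was at 9.10, 1.81 and 1.11 FPKM in A673 and at 4.55, 1.78 and 0.621 FPKM in SKNMC for DMSO, 50 nM and 200 nM. It decreased at both doses in A673, with log2 fold changes of -1.85 and -2.26, and at 200 nM in SKNMC, with -1.77. At 50 nM in SKNMC it kept 39.0% of its DMSO level, but with 1 added to its low FPKM the log2 fold change was -0.999 and missed the threshold. Its neighbour on the other strand, USMG5, had log2 fold changes between 0.25 and 0.42. Promoter sequences of GTF2E1 and TAF5, the pair with the largest falls in A673, are shown for comparison with the dose-reversing genes below. They are RefSeq windows on GRCh38.p14, a build other than the hg19 of the FPKM table, matched by symbol and printed 5′ to 3′ on the strand of the gene from 250 bases before the start site to 50 bases after it, so the base with position 0 is the start. Capitals mark matches on either strand to the motifs searched, none of which contains another: the TATA box with the letters TATAAA, the GC box with the letters GGGCGG, the box named after its letters CCAAT, the ETS core with the letters CCGGAAG and the cyclic AMP response element (CRE) with the letters TGACGTCA. The GTF2E1 window is chr3:120742494-120742793 on the plus strand, and its 3 CCAAT boxes begin at -190, -150 and -101. The TAF5 window is chr10:103367726-103368025 on the plus strand, with a CCAAT box at -178 and a GC box at -47.
GTF2E1: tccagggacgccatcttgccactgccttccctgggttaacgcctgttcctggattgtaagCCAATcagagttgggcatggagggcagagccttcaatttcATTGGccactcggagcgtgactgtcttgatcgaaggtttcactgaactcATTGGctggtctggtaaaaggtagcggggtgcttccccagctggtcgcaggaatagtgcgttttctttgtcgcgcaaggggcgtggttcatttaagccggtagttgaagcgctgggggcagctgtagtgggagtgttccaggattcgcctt
TAF5: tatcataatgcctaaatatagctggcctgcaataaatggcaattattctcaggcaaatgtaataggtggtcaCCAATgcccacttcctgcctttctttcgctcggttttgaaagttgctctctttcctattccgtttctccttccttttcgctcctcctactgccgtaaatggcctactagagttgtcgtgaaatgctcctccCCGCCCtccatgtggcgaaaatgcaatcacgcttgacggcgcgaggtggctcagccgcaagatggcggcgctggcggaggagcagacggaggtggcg

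TAF6L and GTF2A1 also lost transcript at both doses. TAF6L, the TAF6 paralogue of the SAGA coactivator, was at 20.6, 8.37 and 4.82 FPKM in A673 and at 18.6, 8.82 and 5.72 FPKM in SKNMC. It decreased in 3 of 4 comparisons, and at 50 nM in SKNMC the value of -0.996 was just short of the threshold. It overlaps TMEM223 on the other strand, which had log2 fold changes of -1.98 and -1.38 in A673 and -2.11 and -1.66 in SKNMC, and without strand the reads of the 2 genes cannot be told apart. GTF2A1, which encodes the large precursor of TFIIA that is cleaved into alpha and beta chains, was at 16.8, 8.21 and 6.61 FPKM in A673 and at 10.6, 5.36 and 4.62 FPKM in SKNMC. It decreased at 200 nM in both lines, with log2 fold changes of -1.22 and -1.04, and stood at 49.0% and 50.8% of DMSO at 50 nM. GTF2A2, the gamma chain, had log2 fold changes of -0.17 and -0.11 in A673 and -0.50 and -0.71 in SKNMC. TFIIA and TFIIE thus each held a large subunit that was lowered at least 2-fold at 200 nM and a small one that was not.

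**Figure D2:**
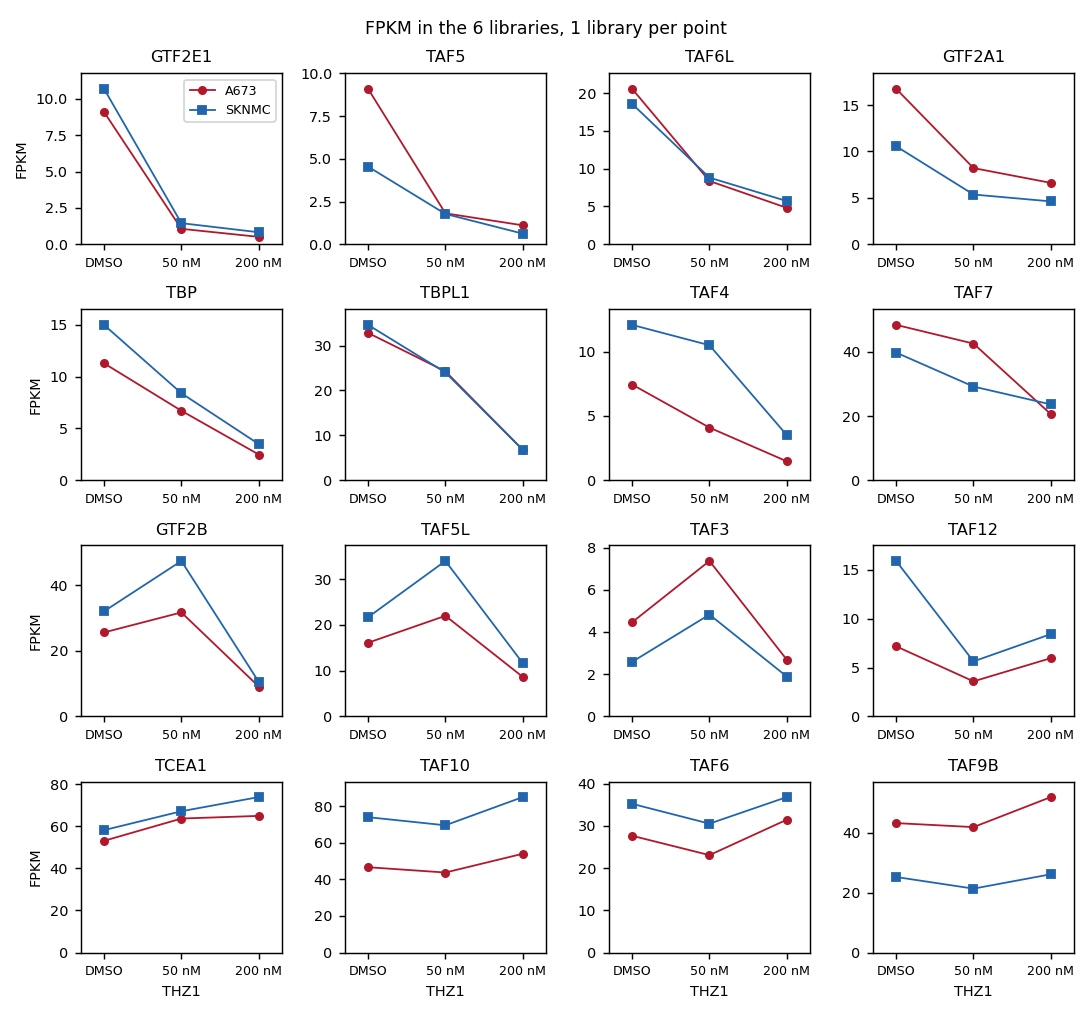
FPKM (y axes, linear, from 0) of 16 genes at DMSO, 50 nM and 200 nM THZ1 (x axes), 1 library per point, A673 in red circles and SKNMC in blue squares. GTF2E1 and TAF5 drop at 50 nM, TBPL1 goes from 32.8 to 6.79 FPKM in A673 mostly between 50 and 200 nM, and GTF2B, TAF5L and TAF3 peak at 50 nM in both lines.

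TBP itself was lowered step by step. It was at 11.3, 6.70 and 2.49 FPKM in A673 and at 15.0, 8.39 and 3.49 FPKM in SKNMC. At 50 nM it kept 59.5% and 56.1% of its DMSO level, short of 2-fold, and at 200 nM 22.1% and 23.3%. Its log2 fold change at 200 nM was -1.82 in A673 and -1.83 in SKNMC. TBPL1, the TBP-like protein that binds TFIIA but not a TATA box, went from 32.8 to 24.3 and 6.79 FPKM in A673 and from 34.6 to 24.0 and 6.82 FPKM in SKNMC. Both of its values at 200 nM lay below 21% of DMSO, while those at 50 nM lay at 73.9% and 69.4%. TAF4, the core TAF that contacts activators, was at 7.44, 4.10 and 1.48 FPKM in A673 and at 12.1, 10.5 and 3.51 FPKM in SKNMC. It decreased at 200 nM, with log2 fold changes of -1.77 and -1.54, and at 50 nM had values of -0.73 and -0.19, of which the SKNMC value changed sign when libraries were divided by the 75th percentile.

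TFIIB behaved differently at the 2 doses. GTF2B, the gene of this single-chain factor that bridges TBP and the polymerase, was at 25.6 FPKM with DMSO, 31.7 FPKM at 50 nM and 9.11 FPKM at 200 nM in A673. In SKNMC it was at 32.0, 47.4 and 10.5 FPKM. Both lines were thus above DMSO at the low dose, at 124% and 148%, and well under it at the high dose, at 35.6% and 32.9%. The same course was seen for TAF5L, the TAF5 paralogue of SAGA, at 16.1, 22.0 and 8.63 FPKM in A673 and 21.7, 33.9 and 11.6 FPKM in SKNMC. It was seen as well for TAF3, whose PHD finger binds trimethylated lysine 4 of histone H3, at 4.46, 7.36 and 2.69 FPKM in A673 and 2.58, 4.82 and 1.89 FPKM in SKNMC. TAF3 had the highest log2 fold changes of the set at 50 nM, 0.62 and 0.70, above 98.4% and 98.6% of active genes. None of the 3 genes reached 2-fold above DMSO. These 3 of 29 genes (10.3%) were above DMSO at 50 nM and below it at 200 nM in both lines, a course shared by 6.93% of the genes active in both. Their signs stayed under all 3 scalings except that of TAF3 at 200 nM in SKNMC, which went from -0.31 to 0.084 with the 75th percentile. The promoters of the 3 genes are shown because their transcripts moved together. The GTF2B window is chr1:88891518-88891817 on the minus strand and holds a TATA box that begins at -29. The TAF3 window is chr10:7818255-7818554 on the plus strand and holds GC boxes at -162 and -65 and an ETS core at -122. The TAF5L window is chr1:229626073-229626372 on the minus strand and holds a CCAAT box whose first base is the start site.
GTF2B: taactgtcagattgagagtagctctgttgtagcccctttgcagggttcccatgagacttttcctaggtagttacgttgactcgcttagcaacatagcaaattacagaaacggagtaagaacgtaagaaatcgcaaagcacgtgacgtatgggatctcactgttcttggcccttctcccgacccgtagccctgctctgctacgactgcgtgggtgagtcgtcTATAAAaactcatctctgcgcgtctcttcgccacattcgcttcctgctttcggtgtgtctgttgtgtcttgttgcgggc
TAF3: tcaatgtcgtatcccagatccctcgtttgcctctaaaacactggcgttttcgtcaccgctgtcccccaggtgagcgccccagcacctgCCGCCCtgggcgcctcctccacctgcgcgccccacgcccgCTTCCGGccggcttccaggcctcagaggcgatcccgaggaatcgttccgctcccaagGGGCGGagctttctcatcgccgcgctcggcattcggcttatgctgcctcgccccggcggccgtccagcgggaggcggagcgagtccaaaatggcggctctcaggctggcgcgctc
TAF5L: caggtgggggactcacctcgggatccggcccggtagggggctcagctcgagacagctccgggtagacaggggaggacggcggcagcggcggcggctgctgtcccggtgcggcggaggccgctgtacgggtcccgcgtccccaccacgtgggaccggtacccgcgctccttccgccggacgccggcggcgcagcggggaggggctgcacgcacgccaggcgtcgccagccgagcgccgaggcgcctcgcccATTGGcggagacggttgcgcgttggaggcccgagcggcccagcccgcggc

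The 2 THZ1 libraries of a line can be compared without the DMSO library that they share. Between 50 and 200 nM, 7 of 29 genes decreased in A673 (24.1%, 7.44% of all active genes) and 6 of 29 in SKNMC (20.7%, 8.39% of all active genes). GTF2B, TBPL1, TAF5L, TAF3, TBP and TAF4 were on both lists, and TAF7, an inhibitor of the acetyltransferase activity of TAF1, was on that of A673. These lists hold for the deposited scale and a pseudocount of 1. With the 75th percentile, TBP in SKNMC was at -0.50 and -1.37 against DMSO and TAF3 at 0.945 and 0.084, at 50 and 200 nM. TAF7 in A673 was then at 0.068 and -0.83. Those 3 steps were short of 2-fold. TBPL1 and GTF2B had the largest steps in A673, of -1.70 and -1.69. In SKNMC GTF2B had the largest, of -2.07, and TBPL1 had -1.68. GTF2E1 and TAF5, which had lost most of their transcript at 50 nM, had log2 steps of -0.45 and -0.41 (A673) and -0.43 and -0.78 (SKNMC). Adding 1 to levels this low understates their steps. From 50 to 200 nM, TAF5 in SKNMC went from 1.78 to 0.621 FPKM and GTF2E1 in A673 from 1.06 to 0.508 FPKM, both more than 2-fold without the added 1. The median step of the set was -0.27 in A673 and -0.43 in SKNMC, next to -0.019 and -0.14 over all active genes. In all, 19 genes were lower at 200 nM than at 50 nM in A673 (51.7% of all active genes were) and 20 in SKNMC (62.0%). Among those higher at 200 nM in both lines was TAF12, at 7.18, 3.59 and 5.96 FPKM in A673 and 15.9, 5.63 and 8.43 FPKM in SKNMC. TAF12 decreased at 50 nM in SKNMC, with a log2 fold change of -1.35, but not at 200 nM.

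**Figure D3:**
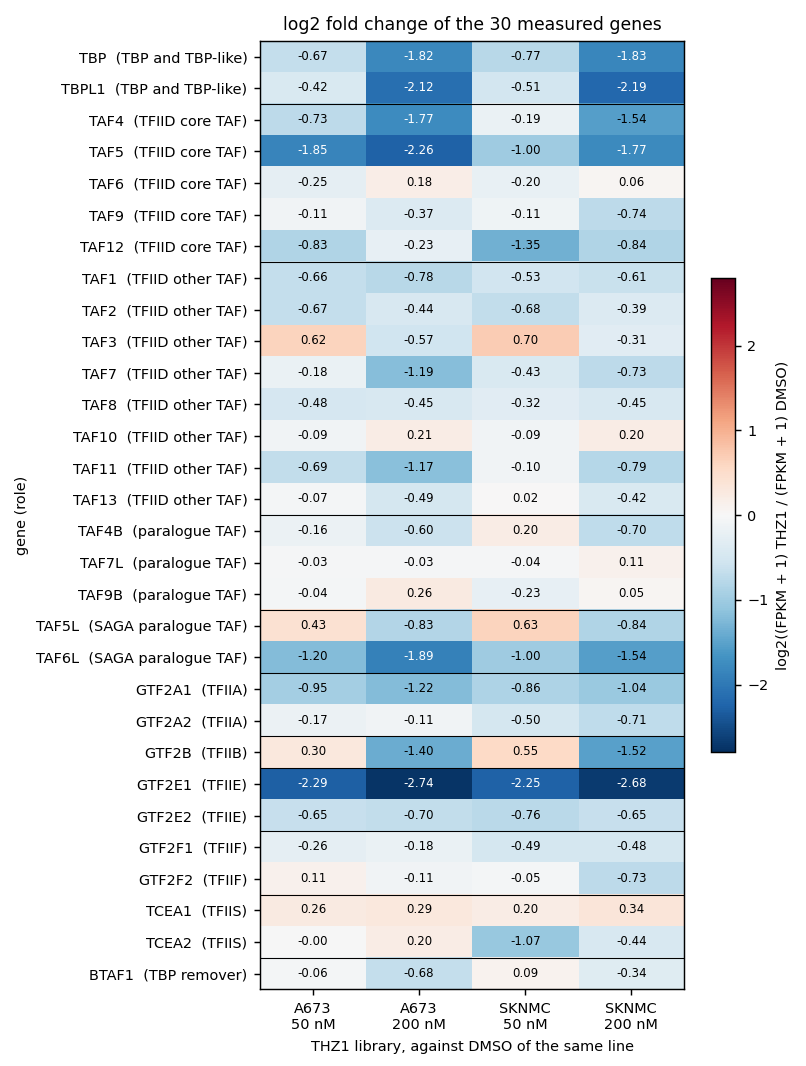
Log2 fold changes against the DMSO library of the line (colour, red above and blue below DMSO, values printed in the cells) for the 30 genes in rows, grouped by role, and the 4 comparisons in columns. GTF2E1 is below -2.2 in every column, TBP, TBPL1 and GTF2B are darker at 200 nM than at 50 nM, and TCEA1 is above 0 in every column.

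The other TFIID subunits had values of different size by line and dose. TAF7, whose gene has a single exon, was at 48.4, 42.6 and 20.6 FPKM in A673 and at 39.8, 29.2 and 23.6 FPKM in SKNMC, and decreased at 200 nM in A673, with a log2 fold change of -1.19. TAF11, a histone-fold TAF that pairs with TAF13, was at 21.0, 12.6 and 8.80 FPKM in A673 and at 22.5, 21.0 and 12.6 FPKM in SKNMC, and decreased at 200 nM in A673, with -1.17. TAF13, its partner, kept 95.5% and 70.9% of its DMSO level in A673 and 101% and 74.3% in SKNMC. TAF1, the scaffold of TFIID with bromodomains that bind acetylated histones, kept 55.3% and 49.1% in A673 and 66.3% and 61.8% in SKNMC. TAF2, which contacts the initiator element, kept between 59.8% and 74.6%, and TAF8, which brings TAF2 into the complex, between 67.2% and 77.6%. The row named TAF9 kept 92.9% and 77.0% in A673 and 92.3% and 59.6% in SKNMC. Of the 14 TFIID subunits including TBP, 1 decreased at 50 nM in each line, 5 at 200 nM in A673 and 3 at 200 nM in SKNMC. These were 7.14% in each line at 50 nM (15.9% and 15.8% of all active genes) and 35.7% and 21.4% at 200 nM (25.3% and 27.3%), with medians of -0.57, -0.53, -0.26 and -0.67 for 50 and 200 nM in A673 and then SKNMC.

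A small group held its level. TCEA1, the widely expressed TFIIS that restarts arrested polymerase, was at 53.0, 63.6 and 64.9 FPKM in A673 and at 58.1, 67.1 and 73.8 FPKM in SKNMC. It was the only gene of the set above DMSO in all 4 comparisons, by 0.26 and 0.29 in A673 and 0.20 and 0.34 in SKNMC, and division by the ribosomal protein median turned all but the A673 value at 50 nM, giving 0.036, -0.066, -0.13 and -0.22. TAF10, a histone-fold TAF shared by TFIID and SAGA, was at 46.7, 43.8 and 54.1 FPKM in A673 and at 74.1, 69.6 and 85.1 FPKM in SKNMC. TAF6, its core neighbour, was at 27.7, 23.1 and 31.5 FPKM in A673 and at 35.3, 30.5 and 36.9 FPKM in SKNMC. TAF9B, the TAF9 paralogue, was at 43.2, 41.9 and 51.9 FPKM in A673 and at 25.2, 21.3 and 26.1 FPKM in SKNMC. Each of these 3 was slightly below DMSO at 50 nM and above it at 200 nM in both lines, and their values at 200 nM, between 0.049 and 0.26 on the log2 scale, all became negative when libraries were divided by the ribosomal protein median. The promoter of TAF10 is shown as that of an abundant gene with little change. Its window, chr11:6612167-6612466 on the minus strand, holds GC boxes at -196 and -153 and a CRE at -48. TAF10 overlaps ILK on the other strand, which was between 45.1 and 58.4 FPKM in the 6 libraries.
TAF10: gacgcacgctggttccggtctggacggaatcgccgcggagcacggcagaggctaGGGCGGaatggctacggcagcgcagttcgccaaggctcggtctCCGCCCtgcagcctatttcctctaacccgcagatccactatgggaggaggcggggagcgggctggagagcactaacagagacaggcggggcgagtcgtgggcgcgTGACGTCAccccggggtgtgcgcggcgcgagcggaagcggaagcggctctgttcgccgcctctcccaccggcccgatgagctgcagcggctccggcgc

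RefSeq windows were found for 26 of the 31 genes, 35 windows in all because some genes have several starts. TATAAA was in the windows of 2 of the 26 genes, GTF2B and TAF4B, and in 11.5% of all 35116 windows. GGGCGG was in those of 15 genes (45% of all windows), CCAAT in those of 10 genes (34.6%), CCGGAAG in those of 9 genes (10.3%) and TGACGTCA in those of 2 genes (1.85%). Counted over windows, the shares in the set were 5.71% for TATAAA, 54.3% for GGGCGG, 31.4% for CCAAT, 28.6% for CCGGAAG and 5.71% for TGACGTCA. The 9 genes with an ETS core were BTAF1, GTF2A1, GTF2A2, GTF2F1, TAF1, TAF12, TAF13, TAF3 and TAF9. A match describes letters in the window and not a bound site. By gene structure the set was varied too: spans ran from 2.27 kb for TAF7 to 198 kb for TAF3 (median 34.9 kb, 31.7 kb for all genes active in both lines). The Spearman correlation of span with the log2 fold change across 29 genes was between -0.12 and 0.11 in the 4 comparisons, given as a description of genes that share their libraries. In 13 of the 30 genes the span overlapped a listed gene on the other strand, and in none did it overlap one on the same strand.

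TFIIF, TFIIS2 and BTAF1 complete the set. GTF2F1 and GTF2F2, the large and small subunits of TFIIF, were at 41.5 and 51.5 FPKM in A673 and 29.2 and 48.1 FPKM in SKNMC with DMSO, and neither decreased. The lowest value of GTF2F1 was -0.49 in SKNMC at 50 nM, and that of GTF2F2 was -0.73 in SKNMC at 200 nM, where it was at 28.7 FPKM. TCEA2, a TFIIS paralogue with high expression in testis, was at 14.3, 14.3 and 16.6 FPKM in A673 and at 21.4, 9.65 and 15.5 FPKM in SKNMC, and decreased at 50 nM in SKNMC, with a log2 fold change of -1.07. BTAF1, an ATPase that removes TBP from DNA, was at 15.1, 14.4 and 9.03 FPKM in A673 and at 13.9, 14.8 and 10.8 FPKM in SKNMC. It kept 60.0% and 77.6% of its DMSO level at 200 nM. GTF2E2 was at 39.5, 24.7 and 24.0 FPKM in A673 and at 18.6, 10.6 and 11.5 FPKM in SKNMC.

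Paralogues moved apart in several of the 7 pairs that could be compared. TAF5 had a level per length 0.566 times that of TAF5L in A673 with DMSO and 0.0825 times at 50 nM. In SKNMC the ratio went from 0.210 to 0.0523. The difference of log2 fold changes, TAF5 minus TAF5L, in A673 was -2.27 (50 nM) and -1.43 (200 nM), and in SKNMC -1.62 and -0.93. TAF6 and TAF6L moved apart the other way, with ratios of 1.34, 2.76 and 6.53 in A673 and 1.90, 3.46 and 6.45 in SKNMC for DMSO, 50 nM and 200 nM. By these values the SAGA paralogue was the more retained of the TAF5 pair and the less retained of the TAF6 pair in both lines. The TAF6 pair carries the strand limit given above, since TAF6L overlaps TMEM223 and TAF6 overlaps AP4M1 and CNPY4 on the other strand. TAF4 and TAF4B, the latter known for its role in germ cells, had ratios of 3.38, 2.20 and 1.32 in A673 and 3.17, 2.32 and 1.80 in SKNMC, with TAF4B at 1.12 and 1.95 FPKM at 200 nM. TBP and TBPL1 had ratios between 0.276 and 0.513 in all 6 libraries. TAF7 was more than 100 times its germ cell paralogue TAF7L in every library, since TAF7L stayed between 0.111 and 0.234 FPKM. The TAF9 row was 3.41 times TAF9B with DMSO and 2.18 times at 200 nM in A673, and 7.01 and 4.04 times in SKNMC, with the limit on that row given above. TCEA1 was 3.72, 4.46 and 3.92 times TCEA2 in A673 and 2.72, 6.95 and 4.76 times in SKNMC.

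The 2 lines gave similar values gene by gene. On the deposited scale, 25 of the 29 genes active in both had the same sign in both lines at 50 nM and 28 at 200 nM. Of all genes active in both, 84.8% and 81.3% did. The Spearman correlation between the lines was 0.77 at 50 nM and 0.82 at 200 nM across these 29 genes, and 0.84 and 0.82 across all 10574 genes active in both. Genes are not independent replicates, so these are descriptions. All 8 genes that decreased in SKNMC at 200 nM, namely TBP, TBPL1, TAF4, TAF5, TAF6L, GTF2A1, GTF2B and GTF2E1, also decreased in A673, and TAF7 and TAF11 were added there. At 50 nM GTF2E1 was the only decreased gene on both lists. The other genes decreased at 50 nM were TAF5 and TAF6L in A673 and TAF12 and TCEA2 in SKNMC. TCEA2 was the gene farthest apart between the lines at 50 nM, with 14.3 FPKM in both A673 libraries and a log2 fold change of -1.07 in SKNMC.

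**Figure D4:**
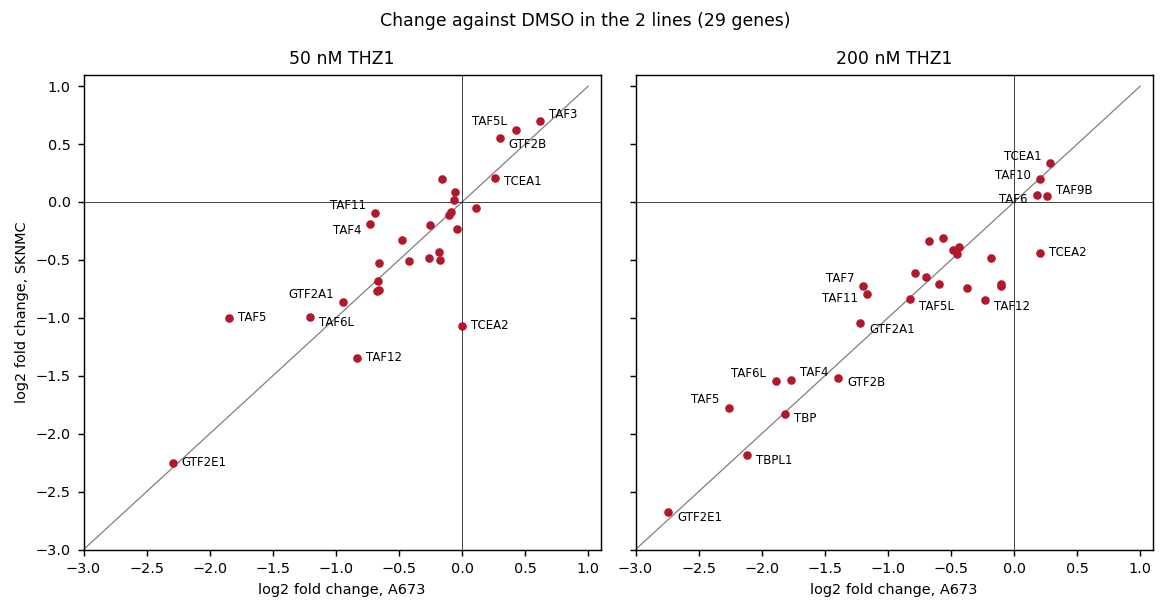
Log2 fold change against DMSO in A673 (x axis) and in SKNMC (y axis) at 50 nM (left) and 200 nM (right), 1 point per gene for the 29 genes active in both lines, with the diagonal in grey. GTF2E1 lies at the lower left in both panels, GTF2B, TAF5L and TAF3 lie above 0 at 50 nM and below 0 at 200 nM, and TCEA2 lies off the diagonal at 50 nM at about 0 in A673 and -1.07 in SKNMC.

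Neighbouring complexes of the initiation machinery are given for comparison, with no test of a difference. In A673 15.9% (50 nM) and 25.3% (200 nM) of all active genes decreased, and in SKNMC 15.8% and 27.3%. The 10 genes of TFIIH, which holds CDK7, had medians of -0.57 and -0.30 in A673 and -0.45 and -0.68 in SKNMC. In that order 1, 2, 1 and 3 of them decreased (10%, 20%, 10% and 30%). The 12 subunits of RNA polymerase II had medians of 0.12, 0.12, 0.015 and -0.026, with at most 1 decreased in a comparison (8.33%). Mediator, with 32 active genes, had medians of -0.38, -0.76, -0.34 and -0.999, and 6, 11, 6 and 16 decreased (18.8%, 34.4%, 18.8% and 50%). The set described here, at -0.25, -0.60, -0.32 and -0.71, lay below the polymerase subunits in each comparison. It lay above Mediator in each, though barely in SKNMC at 50 nM (-0.32 against -0.34). Compared with TFIIH, it was higher at 50 nM and lower at 200 nM in both lines, though barely in SKNMC at 200 nM (-0.71 against -0.68). By the rule for naming, changes of at least 2-fold in both lines at 50 nM, these lists held GTF2H2 of TFIIH, POLR2A, MED7, MED8, MED9, MED22 and MED29. POLR2A, the largest subunit of the polymerase, was the only 1 of them above DMSO, at 37.6, 116 and 47.4 FPKM in A673 and 29.2, 96.8 and 46.8 FPKM in SKNMC. GTF2H2 has near-identical copies, and its values of -1.27 and -1.64 at 50 nM are uncertain for that reason.

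**Figure D5:**
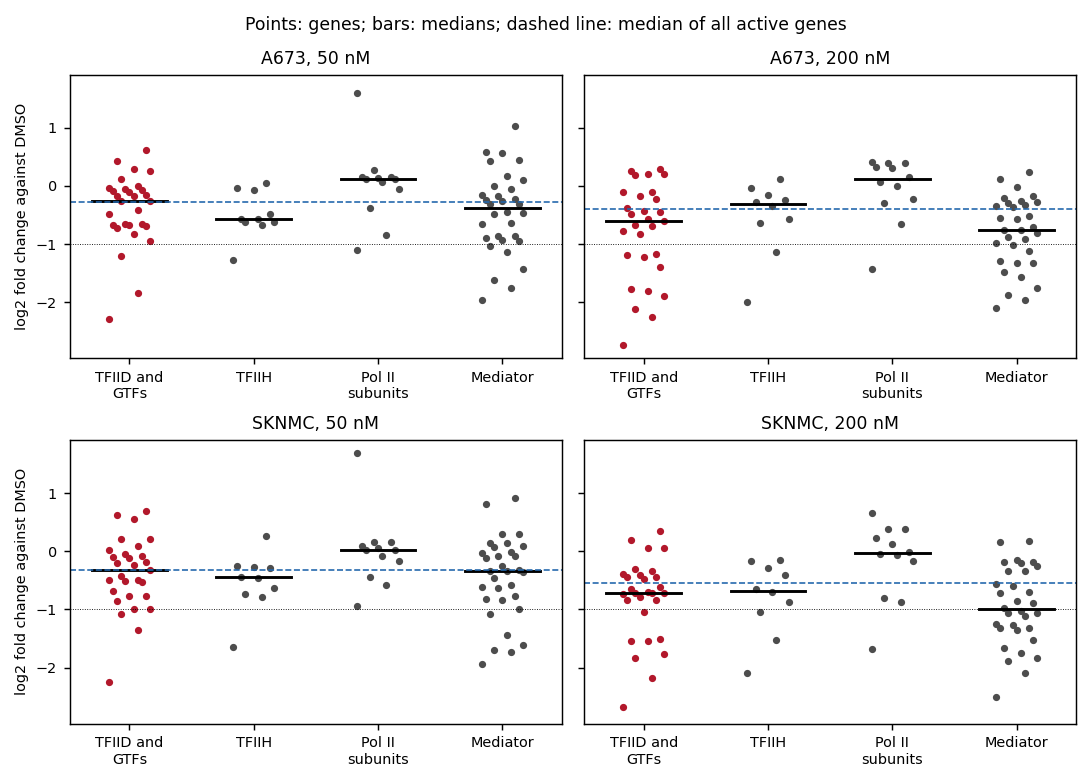
Log2 fold change against DMSO (y axis) of each active gene (points) of the set in red and of TFIIH, the RNA polymerase II subunits and Mediator in grey, in 4 panels by line and dose, with bars at list medians, a dashed line at the median of all active genes and a dotted line at 2-fold below DMSO. The polymerase subunits have the highest median in each panel, and the bar of the set lies between -0.25 and -0.71.

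Factors that use TBP or TAFs elsewhere were followed as well. At 50 and 200 nM, 15.9% and 25.3% of all active genes decreased in A673 and 15.8% and 27.3% in SKNMC. SAGA and ATAC, the coactivators that contain TAF5L and TAF6L or share other subunits with SAGA, were followed by 22 genes. Of these, 5 decreased with the low and 10 with the high dose in A673 (22.7% and 45.5%). In SKNMC 3 and 7 did (13.6% and 31.8%), and the 4 medians were -0.33, -0.79, -0.23 and -0.74. SUPT20H, TADA2A and SGF29 of this list decreased in both lines at 50 nM, SUPT20H from 22.2 to 5.47 FPKM in A673 and from 19.2 to 6.03 FPKM in SKNMC. Of the 4 SL1 genes, which carry TBP to RNA polymerase I, 1 (25%) decreased in A673 at each dose. In SKNMC none did at 50 nM and 2 (50%) did at 200 nM. Of 10 genes of TFIIIA, TFIIIB and TFIIIC, which serve RNA polymerase III, 1 and 3 decreased in A673 (10% and 30%). In SKNMC 1 and 4 did (10% and 40%). BRF2, a TFIIB-related factor, decreased at 50 nM in both lines, with log2 fold changes of -1.64 and -1.59. Of 5 SNAPc genes, 1 and 2 decreased in A673 (20% and 40%) and 2 and 1 in SKNMC (40% and 20%). DR1, the NC2 subunit that represses TBP on DNA, was chosen with its values already seen. It followed the course of GTF2B, at 44.5, 57.4 and 28.8 FPKM in A673 and 40.2, 62.3 and 28.7 FPKM in SKNMC, while its partner DRAP1 was between 59.9 and 89.8 FPKM. That course was not particular to genes of TBP and TFIIB. In both lines it was also that of CCNH of TFIIH, POLR2B, MBIP of the SAGA and ATAC list and several Mediator genes. These were MED13, MED13L, MED14, MED15, MED25, MED26 and MED30. Among the germline relatives, TBPL2 and GTF2A1L were below 0.13 FPKM in every library. TCEA3, another TFIIS, was at 19.9, 14.8 and 15.5 FPKM in SKNMC and at most 0.19 FPKM in A673.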

How the data were processed

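RNA-seq was measured in 6 libraries, 1 for each combination of 2 Ewing sarcoma cell lines and 3 conditions. By the study's methods, TruSeq libraries were read on a HiSeq2000 as paired ends of 100 bp, and STAR placed them on hg19 with Ensembl 75. The authors deposited FPKM values, estimated with StringTie by the methods, whereas the submitters' processing notes name STAR and Cufflinks. Columns of the authors' own log2 fold changes were not used. The name of the table speaks of averages, but the labels give 1 library per condition, and each column was treated as such. FPKM holds no read counts, low values gave no clear step of single reads, and the depth is unknown.

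Values were computed with Python 3.11.15, pandas 2.3.3 and SciPy 1.17.1, with a pseudocount of 1, an active threshold of 1 FPKM and a 2-fold limit. The formula was checked by recovering set changes written without noise into a copy of the data. That check says nothing about error between libraries. Exon counts and symbols came from GENCODE 44 on GRCh37, and promoters from RefSeq on GRCh38.p14, matched by symbol for 26 of 31 genes. TAF1L was not analysed here. All members were named. Genes of other lists were named when active in both lines and changed at least 2-fold the same way in both at 50 nM. Named outside this rule were the markers, DR1, DRAP1, the germline relatives and genes that shared the course of GTF2B. The members and lists were chosen with earlier results of these data known. Alternatives were other pseudocounts, filters, thresholds, scalings and backgrounds.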

Additional observations from a re-analysis of the deposited data

Results flagged for a closer look

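In 5 cases the value of a gene active in both lines had opposite signs in A673 and SKNMC at 1 dose. These differences rest on 1 library per condition and were not tested. At 50 nM, TAF13 was at -0.065 in A673 and 0.020 in SKNMC, a difference of -0.085. TAF4B was at -0.16 and 0.20 at that dose, a difference of -0.36. GTF2F2 was at 0.11 and -0.050, a difference of 0.16, and BTAF1 was at -0.059 and 0.089, a difference of -0.15. At 200 nM, TCEA2 was at 0.20 in A673 and -0.44 in SKNMC, a difference of 0.64. For each of the 5, a scaling of the libraries turned the sign in at least 1 line.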

How the results depend on the processing

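No paired analysis was possible because each condition has 1 library. Leaving out a library was not possible for the same reason. Of the recomputed counts and medians, 112 stayed within 1.5 times of the count or within 0.1 of the median and 24 did not. Values of single genes moved more often: 216 recomputed log2 fold changes stayed within 0.1 and 264 did not. No change of at least 2-fold reversed its direction under a pseudocount of 0.1 or any of 3 scalings. In the order A673 at 50 nM, A673 at 200 nM, SKNMC at 50 nM and SKNMC at 200 nM, the median of the set with the 75th percentile was -0.0066, -0.34, -0.067 and -0.17, and with the ribosomal protein median it was -0.47, -0.83, -0.61 and -1.26. With the latter, decreased genes numbered 5 of 29 in A673 at 50 nM (21.2% of all active genes), 8 in SKNMC at 50 nM (25.4%) and 19 in SKNMC at 200 nM (49.5%), and the median of the set minus that of all active genes in SKNMC at 200 nM was -0.27 in place of -0.16. Without a filter on low values that difference was -0.22, -0.58, -0.28 and -0.71. Between 8776 and 10182 genes of a library were then included at 0 FPKM, and in A673 the difference equalled the unfiltered median of the set itself. It therefore cannot be read as a larger fall of the set than of expressed genes. A pseudocount of 0.1 gave 5 decreased genes in SKNMC at 50 nM (22.5% of all active genes) and a median of -0.72 in A673 at 200 nM. At a 1.5-fold threshold 11 genes were decreased in A673 at 50 nM (31.8% of all active genes), 9 in SKNMC at 50 nM (33.5%) and 18 in SKNMC at 200 nM (48.0%), and 1 and 2 were increased at 50 nM in A673 (1.78%) and SKNMC (2.43%). The count of genes higher in A673 with DMSO was 23 with the ribosomal protein median, and 14 as deposited. Which scaling is closest to RNA per cell was not tested.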
